A study of Mus musculus with 18 samples.

Results

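The genes described here are 49 E2F-regulated genes of DNA replication chosen by their role, a list of gene symbols mapped to Ensembl IDs. They are 49 of the 46078 genes in the RNA-seq count table and 49 of the 15514 genes with enough reads to be tested, so none was lost to the filter on low counts. RNA-seq and ATAC-seq of mouse small cell lung cancer (SCLC) were compared between 3 genotypes, each with 3 libraries per assay from independent animals per the labels, 18 libraries in all. Both assays are described as run on the same tumor biopsies, so they need not be independent of each other. ATAC-seq counts reads at accessible chromatin, and each gene was also given the peaks within 1000 bp of its annotated transcript starts.

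All animals carried loxP alleles that include Rb1 and a further pocket protein gene (Rbl1 in the labels, Rbl2 in the description of the mice), the genotype called TKO, with a tdTomato reporter. TKO;Carm1KO animals (CARM1 knockout) also carried loxP alleles of Carm1, and TKO;NfibR388K animals (NFIB mutant) an arginine-to-lysine change in the transcription factor NFIB at the site that the methyltransferase CARM1 modifies. The comparisons ask what the loss of the enzyme, or of its site on NFIB, does to TKO tumors. Adenovirus expressing Cre (Ad-Cre) was given into the trachea at 8 weeks of age, and tumors were collected 28 weeks later. The promoter that drives Cre in the virus was not given. The source of the cells is given as tumor biopsies, as cells sorted on tdTomato and as cell lines, and these accounts were not settled here. RNA-seq counts summed to 17874531, 20915057 and 19090012 reads on genes in TKO, 15848866, 18615124 and 17819472 in the CARM1 knockout and 17269208, 17989765 and 17676402 in the NFIB mutant. ATAC-seq counts on peaks summed to 41880423, 47653979 and 26917178 in TKO, 35143296, 44685915 and 35213156 in the CARM1 knockout and 30759293, 36907914 and 42215940 in the NFIB mutant.

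As background, E2F transcription factors switch on the genes a cell needs to copy its DNA, and the retinoblastoma family of pocket proteins holds them back until the cell commits to S phase. The products act in order: origin recognition and licensing proteins load the MCM helicase, kinases and the CMG factors activate it, and the clamp, primase and polymerases then copy the strands. SCLC almost always lacks RB1 function and divides fast.

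The engineered genes were checked first, as CPM (counts per 1000000 reads, scaled by edgeR's trimmed mean of M values). Nfib had 420.2, 579.9 and 571 CPM in TKO, 74.5, 216 and 87.2 in the CARM1 knockout and 105, 83.3 and 91.4 in the NFIB mutant. Every mutant library was below every TKO library, also in the CARM1 knockout, whose Nfib alleles are wild type (log2 fold change -2.06 and -2.49 in the CARM1 knockout and the NFIB mutant). Carm1 had 97.7, 103 and 44.5 CPM in TKO, 63.4, 79.1 and 50.8 in the CARM1 knockout and 100.4, 104 and 102 in the NFIB mutant. The knockout libraries lay within the range of TKO, and counts over the whole gene do not show whether the loxP-flanked exons were lost. Rb1, deleted in part in all 3 genotypes, had 92.3, 60.5 and 73.2 CPM in TKO, 23.1, 18.4 and 48.6 in the CARM1 knockout and 32.6, 31.2 and 8.58 in the NFIB mutant, lower in all 6 mutant libraries. Rbl1 had 12.9, 1.49 and 67.8 CPM in TKO, 53.5, 50.6 and 55.4 in the CARM1 knockout and 55.4, 1.79 and 54.7 in the NFIB mutant, with TKO replicate 2 and NFIB mutant replicate 2 far below the rest and TKO replicate 1 between. Rbl2 had 24.3, 17.9 and 16.4 CPM in TKO, 10.3, 8.16 and 13.2 in the CARM1 knockout and 14.9, 17.1 and 9.09 in the NFIB mutant. All CARM1 knockout libraries were below TKO (-0.89, adjusted p = 0.0707, past the thresholds given below), and the NFIB mutant overlapped it (-0.51).

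The cell identity on the label was checked against marker lists. The 12 neuroendocrine markers summed to 2472, 2164 and 4323 CPM in TKO, 59.5, 237 and 2097 in the CARM1 knockout and 115, 38.9 and 51.2 in the NFIB mutant. All 12 were above a floor of 3 counts in each TKO library and in CARM1 knockout replicate 3. In CARM1 knockout replicate 1, 6 of the 12 had no count, among them Insm1 and Scg2, and the list's most abundant gene, Scg2, had 0, 0.117 and 109.8 CPM in the knockout and 1.70, 0.123 and 0.254 in the NFIB mutant. The markers of the labelled cell type thus summed to at most 237 CPM in 5 of the 6 mutant libraries, although 11 of the 12 were above the floor in NFIB mutant replicate 1, and CARM1 knockout replicate 3 was close to TKO.

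The 6 fibroblast markers ran the other way, at 11.2, 26.6 and 63.4 CPM in TKO, 17020, 14460 and 25790 in the CARM1 knockout and 12570, 9479 and 15920 in the NFIB mutant. The most abundant, Col1a1 of type I collagen, had 0.288, 3.85 and 0.354 CPM in TKO and between 2372 and 10050 CPM in the mutant libraries. Leukocyte markers, of which Lyz2 was the most abundant, summed to 57.9, 5.07 and 4.70 CPM in TKO, 908, 183.5 and 2716 in the CARM1 knockout and 435, 532 and 27.1 in the NFIB mutant. These lists were high in mutant libraries only, apart from NFIB mutant replicate 3 for leukocytes, which lay within the TKO range. Lung epithelium markers summed to 30.4, 14.3 and 49.7 CPM in TKO, 2.85, 8.69 and 423 in the CARM1 knockout and 2217, 86.7 and 2.67 in the NFIB mutant, and Sftpb was the most abundant. Endothelial markers, led by Vwf, summed highest in CARM1 knockout replicate 3, at 73.9 CPM, with no other library above 21.3 CPM. Of the called genes with the largest changes, the leukocyte integrin Itgam rose in the CARM1 knockout (6.92) and the surfactant gene Sftpb in the NFIB mutant (10.68, with 1737 CPM in replicate 1 and 0.254 in replicate 3). Foxj1 of ciliated cells fell in both mutants from at most 12.9 CPM, and the endothelial genes Cdh5, which rose in both, and Kdr, which fell in the NFIB mutant, had at most 2.77 and 16.2 CPM in any library. The sort on tdTomato that the methods describe keeps cells in which Cre acted and would remove others. The part of these cell types in the replication gene results below was not tested, and in bulk samples fewer cells of a type and less RNA per cell cannot be told apart.

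**Figure D1:**
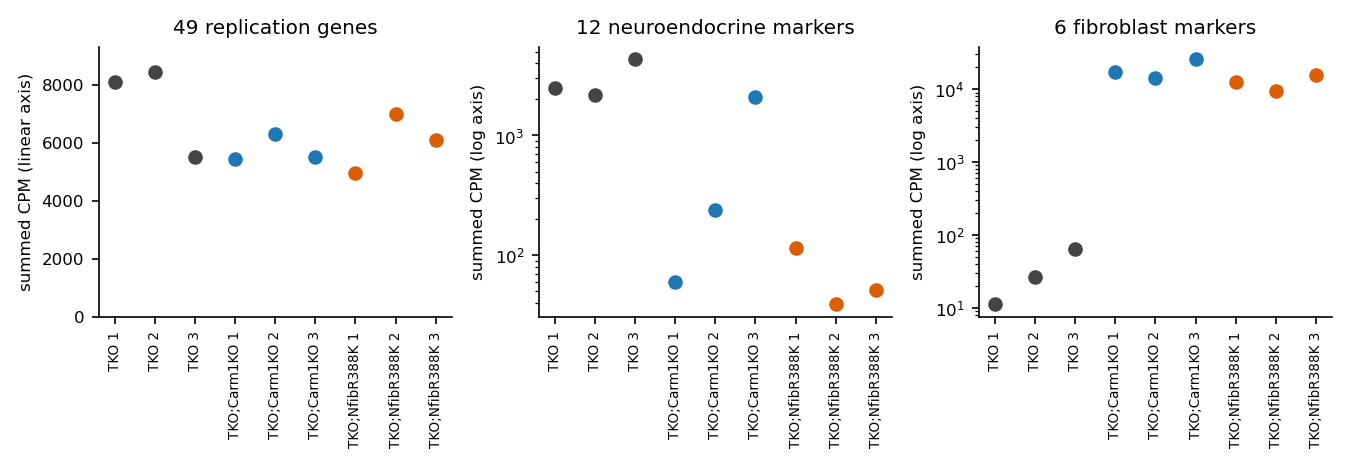
Summed CPM in each RNA-seq library for the 49 replication genes (linear axis), the 12 neuroendocrine markers and the 6 fibroblast markers (log axes), 1 point per library. TKO replicate 3 is at 5520 CPM for the replication genes, within the range of the mutants, while the fibroblast markers separate all mutant libraries from TKO.

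The replication genes were lower in the CARM1 knockout for 11 of the 49 and higher for none, by the quasi-likelihood test of edgeR, with p values adjusted over all genes by the method of Benjamini and Hochberg (adjusted p below 0.1 and a log2 fold change of 0.8 or more in size). Of all genes tested, 18.3% were lower and 20.5% higher. The 11 were the factors E2f2, E2f3 and E2f8, the kinase Cdc7, the helicase subunit Gins1, the clamp Pcna, the primase Prim1, the polymerase subunit Pole2, the dUTPase Dut, the cyclin Ccne2 and the histone chaperone Chaf1b. In the NFIB mutant 9 of 49 were lower and none higher, where 23.5% of all genes were lower and 22.3% higher. These were E2f2, E2f3, Mcm2, Orc6, Cdc7, Prim1, Dut, Ccne2 and Chaf1b, so 7 genes were lower in both mutants, which share the TKO libraries, and 13 in either. The share lower was thus close to that of all genes in both comparisons, while no member passed as higher. Below 0 were the log2 fold changes of 38 members in the CARM1 knockout and 36 in the NFIB mutant, beside 50.9% and 51.5% of all genes. Their median was -0.45, within a range of -1.51 to 0.74, in the CARM1 knockout and -0.31, within -2.03 to 0.75, in the NFIB mutant, beside -0.03 and -0.05 over all genes.

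The sums over the 49 genes were 8124, 8478 and 5520 CPM in TKO, 5442, 6309 and 5512 in the CARM1 knockout and 4979, 7017 and 6107 in the NFIB mutant. TKO replicate 3 thus lay among the mutants, and it held the lowest TKO value for 43 of the 49 genes. For 18 genes all CARM1 knockout libraries were below all TKO libraries, beside 27.5% of all genes, and for 13 genes all NFIB mutant libraries were, beside 30.5%. An exact permutation test of 3 libraries against 3 cannot go below p = 0.1, so the gene-wise tests rest on the spread that edgeR pools over genes.

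Single libraries moved these counts. Without TKO replicate 3, 21 members were lower in the CARM1 knockout, among them all 11, beside 15.7% of all genes in that fit, and 13 in the NFIB mutant, beside 20.8%. Without TKO replicate 1 there were 6 in the CARM1 knockout, beside 13.9%, and without CARM1 knockout replicate 1 there were 7, beside 12%. Without CARM1 knockout replicate 3, the library with neuroendocrine markers, 9 of the 11 remained, beside 19.8% of all genes (E2f8 and Gins1 were lost, at log2 fold changes of -0.69 and -0.81). The calls that held whichever of the 9 libraries was left out were E2f3, Cdc7, Prim1, Dut and Ccne2 in the CARM1 knockout, and the same 5 genes with E2f2 in the NFIB mutant. With library totals alone as the scale, the median of all genes moved to -0.30 in the CARM1 knockout and -0.37 in the NFIB mutant, and 60.6% and 64.2% of all calls were lower in place of 47.1% and 51.3%. With that scale 21 and 20 members were lower, beside 24.9% and 31.0% of all genes, and their median relative to that of all genes was -0.42 and -0.27, beside -0.42 and -0.26 with the scale used here. The same difference was -0.24 and -0.06 with DESeq2 and -0.25 and -0.07 without a filter on low counts, which set the members beside more genes. It was -0.68 and -0.52 without TKO replicate 3, -0.30 and -0.16 without TKO replicate 1 and, in the NFIB mutant, -0.13 without NFIB mutant replicate 1.

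**Figure D2:**
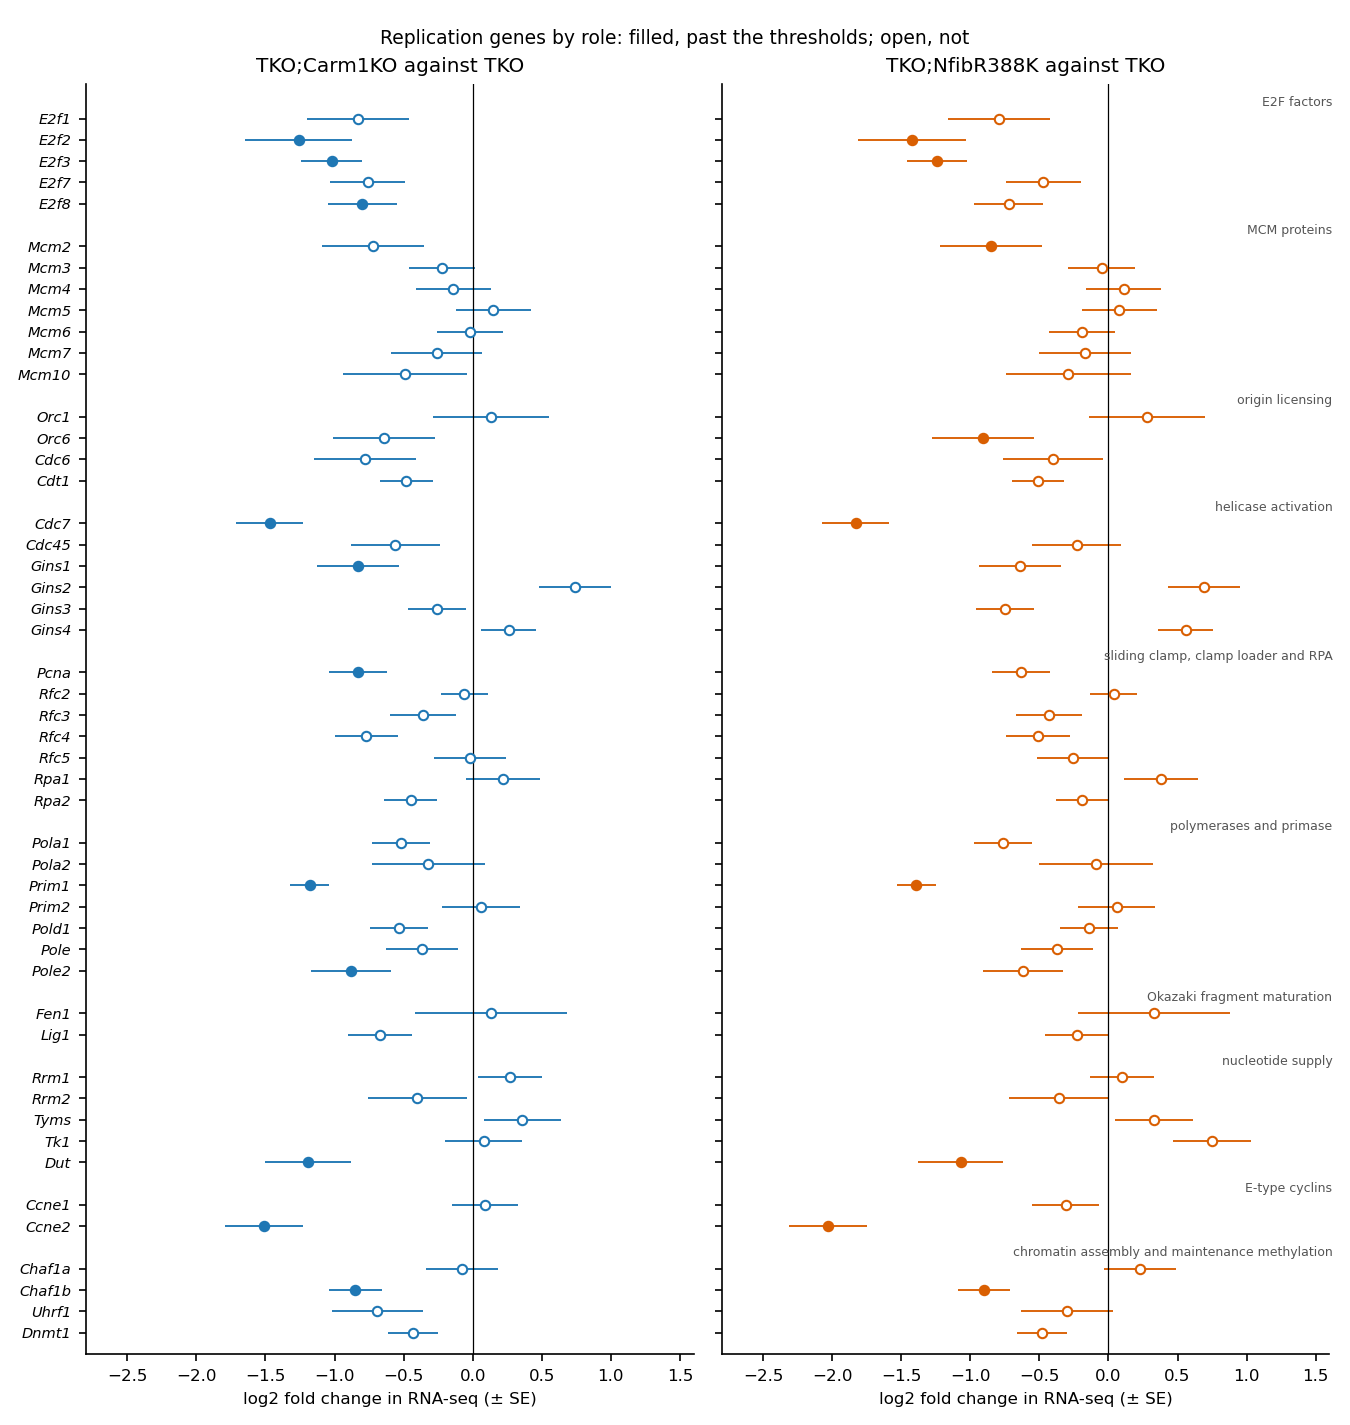
Log2 fold change of each of the 49 genes in RNA-seq (points, with the standard error of the fit as bars) in the CARM1 knockout and the NFIB mutant against TKO, grouped by role. Filled points passed the thresholds: 11 in the left panel and 9 in the right, all below 0, with Ccne2 at -1.51 and -2.03 the lowest in each.

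The E2F factors of the list are the activators E2f1, E2f2 and E2f3 and the repressors E2f7 and E2f8. E2f3 had 81.2, 98.2 and 65.0 CPM in TKO, 39.4, 47.4 and 33.9 in the CARM1 knockout and 38.0, 28.2 and 37.2 in the NFIB mutant. All 6 mutant libraries were below all TKO libraries, with the mean down 2.02-fold in the CARM1 knockout (log2 fold change -1.02 ± 0.22, adjusted p = 0.0111) and 2.36-fold in the NFIB mutant (log2 fold change -1.24 ± 0.22, adjusted p = 0.00429). E2f2 had 92.0, 88.0 and 52.5 CPM in TKO, 19.6, 34.5 and 43.1 in the CARM1 knockout and 34.8, 33.8 and 17.9 in the NFIB mutant. It fell in all 6 mutant libraries, at -1.26 (adjusted p = 0.0376) and -1.42 (adjusted p = 0.0211), and lost its call in the CARM1 knockout without TKO replicate 1 (-1.10) or CARM1 knockout replicate 1 (-0.99). E2f1, the most abundant by CPM, had 289, 105 and 122.5 CPM in TKO, 84.2, 88.1 and 118 in the CARM1 knockout and 89.9, 108 and 99.9 in the NFIB mutant. TKO replicate 1 stood alone, the remaining libraries overlapped, and E2f1 did not pass with all libraries (-0.83 and -0.79). Without TKO replicate 1 its log2 fold changes were -0.22 and -0.19, so that library carries most of the difference. It passed as lower in both mutants without TKO replicate 2 (-1.09 and -1.05) or TKO replicate 3 (-0.99 and -0.96). E2f8 was at the threshold in the CARM1 knockout (log2 fold change -0.80 ± 0.25, adjusted p = 0.039) and its call was lost in 6 of the 9 fits that left a library out, at -0.65 without TKO replicate 1, -0.69 without CARM1 knockout replicate 3, -0.75 without CARM1 knockout replicate 1 and -0.79 without any of the NFIB mutant libraries.

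The promoters of E2f2 and E2f3 are shown because both genes fell in both mutants and because E2F genes are themselves targets of E2F. The sequences, from RefSeq (GRCm38.p6), run from 250 bases before to 50 bases after a transcript start, 5′ to 3′ on the strand of the gene. Capitals mark the E2F letters searched, TTTCCCGC, TTTCGCGC, TTTGCCGC and TTTGGCGC on both strands, which can overlap each other. The E2f2 promoter (GRCm38.p6, chr4:136172024-136172323, plus strand) holds 1 match and the E2f3 promoter (chr13:29986014-29986313, minus strand) 1, just before the start. Each gene has a further promoter sequence without a match (chr4:136180532-136180831 and chr13:29984342-29984641), not shown.
E2f2: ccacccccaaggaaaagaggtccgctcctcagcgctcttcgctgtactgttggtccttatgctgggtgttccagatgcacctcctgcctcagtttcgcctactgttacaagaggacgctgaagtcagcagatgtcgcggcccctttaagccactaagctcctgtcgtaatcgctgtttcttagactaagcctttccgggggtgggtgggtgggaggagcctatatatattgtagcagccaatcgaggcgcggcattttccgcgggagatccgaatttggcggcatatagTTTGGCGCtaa
E2f3: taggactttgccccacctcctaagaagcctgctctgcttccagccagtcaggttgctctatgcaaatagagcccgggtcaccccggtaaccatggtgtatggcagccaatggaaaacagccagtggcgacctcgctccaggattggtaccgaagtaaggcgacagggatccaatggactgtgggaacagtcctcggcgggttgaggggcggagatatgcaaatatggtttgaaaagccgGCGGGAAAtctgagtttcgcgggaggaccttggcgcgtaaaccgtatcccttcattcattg

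The MCM proteins form the ring-shaped helicase (Mcm2 to Mcm7), with Mcm10 as an activation factor. Mcm6, the most abundant in CPM, had 389, 502.5 and 291 CPM in TKO, 397, 390.5 and 375 in the CARM1 knockout and 273, 430.0 and 334 in the NFIB mutant. The 3 genotypes overlapped throughout, and the log2 fold changes of -0.02 and -0.19 were within their standard errors of 0.24 and 0.24. Mcm2 had 513, 649 and 235 CPM in TKO, 232.5, 319.9 and 297 in the CARM1 knockout and 199, 336 and 239.9 in the NFIB mutant. TKO replicates 1 and 2 were high, and TKO replicate 3 lay within the mutants. The call of Mcm2 in the NFIB mutant (log2 fold change -0.85 ± 0.37, adjusted p = 0.0964) was lost in 7 of the 9 fits without a library, with -0.54 without TKO replicate 2, -0.68 without NFIB mutant replicate 1, -0.76 without TKO replicate 1 and -0.79 without NFIB mutant replicate 3, and between -0.84 and -0.82 without each CARM1 knockout library. The other 5 subunits of the ring had log2 fold changes between -0.26 and 0.15 in the CARM1 knockout and between -0.19 and 0.11 in the NFIB mutant, and none passed a threshold. Per length of exon, the 6 subunits of the ring in TKO ran from 59.5 (Mcm4) to 89.3 (Mcm3) RPKM (CPM per kilobase of exon).

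The Mcm6 and Mcm3 promoters show what genes whose RNA passed no threshold hold in the same window. Mcm6 (chr1:128359656-128359955, minus strand) has 3 matches to the E2F letters, of which a pair overlaps. Mcm3 (chr1:20820263-20820562, minus strand) has 2, after the start.
Mcm6: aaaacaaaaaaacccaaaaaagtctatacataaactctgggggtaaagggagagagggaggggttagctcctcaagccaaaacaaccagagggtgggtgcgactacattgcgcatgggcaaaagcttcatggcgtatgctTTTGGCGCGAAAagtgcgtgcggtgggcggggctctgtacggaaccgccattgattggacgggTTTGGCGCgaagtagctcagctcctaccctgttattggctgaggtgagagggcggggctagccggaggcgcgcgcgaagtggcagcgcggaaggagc
Mcm3: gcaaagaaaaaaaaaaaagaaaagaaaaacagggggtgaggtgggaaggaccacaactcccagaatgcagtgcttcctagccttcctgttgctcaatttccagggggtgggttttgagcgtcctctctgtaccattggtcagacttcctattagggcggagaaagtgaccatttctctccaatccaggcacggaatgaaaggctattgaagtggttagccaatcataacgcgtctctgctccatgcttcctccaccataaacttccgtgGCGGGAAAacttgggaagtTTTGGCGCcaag

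Origin licensing was represented by Orc1 and Orc6 of the origin recognition complex and the loaders Cdc6 and Cdt1. Orc6 had 61.2, 131 and 43.5 CPM in TKO, 47.0, 59.2 and 44.5 in the CARM1 knockout and 41.7, 40.4 and 42.9 in the NFIB mutant. The NFIB mutant libraries lay below all TKO libraries, but only just (42.9 CPM in NFIB mutant replicate 3, 43.5 in TKO replicate 3). TKO replicate 2 stood far above the rest, and the CARM1 knockout overlapped TKO. Orc6 passed in the NFIB mutant (log2 fold change -0.91 ± 0.37, adjusted p = 0.0786), but its log2 fold change was -0.33 without TKO replicate 2, and without any of the mutant libraries the call was lost too, at -0.93 to -0.88. Cdt1, the most abundant of the group in CPM, had 156, 190.1 and 119 CPM in TKO, 106, 121 and 105 in the CARM1 knockout and 99.3, 104 and 124 in the NFIB mutant. Only CARM1 knockout replicate 2 and NFIB mutant replicate 3 reached the lowest TKO value, and the log2 fold changes, -0.48 and -0.51, were under the minimum of 0.8.

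Among the genes that activate the helicase, Cdc7, the kinase that fires origins by phosphorylating MCM proteins, changed most. Cdc7 had 78.1, 79.7 and 70.3 CPM in TKO, 31.9, 24.8 and 25.4 in the CARM1 knockout and 21.4, 27.7 and 15.1 in the NFIB mutant. The TKO libraries were tight and all mutant libraries were below 32 CPM, a 2.78-fold lower mean in the CARM1 knockout (log2 fold change -1.47 ± 0.24, adjusted p = 0.00393) and 3.56-fold in the NFIB mutant (log2 fold change -1.83 ± 0.24, adjusted p = 0.0015). Dbf4, the regulatory subunit of the same kinase and not a member, had 89.0, 119 and 69.3 CPM in TKO, 97.1, 73.4 and 88.3 in the CARM1 knockout and 73.8, 73.8 and 75.7 in the NFIB mutant, without a call in either mutant, and is named here after its values were seen. Cdc45, a part of the active helicase, had 109.7, 128 and 50.3 CPM in TKO, 68.5, 69.3 and 58.0 in the CARM1 knockout and 72.9, 94.3 and 78.2 in the NFIB mutant. Its groups overlapped through TKO replicate 3, and neither comparison passed. Of the GINS complex, Gins1 fell in the CARM1 knockout (log2 fold change -0.83 ± 0.30, adjusted p = 0.0625), a call lost without TKO replicate 1 (-0.59), TKO replicate 2 (-0.77) or any CARM1 knockout library (-0.88 to -0.75).

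Gins2 pointed the other way, with 39.8, 35.9 and 25.8 CPM in TKO, 59.5, 62.4 and 47.9 in the CARM1 knockout and 37.8, 61.6 and 64.8 in the NFIB mutant. All CARM1 knockout libraries were above TKO, and the log2 fold changes of 0.74 (adjusted p = 0.058) and 0.69 (adjusted p = 0.0617) were under the minimum. Gins2 passed as higher in the CARM1 knockout without TKO replicate 1 or CARM1 knockout replicate 3 (0.90 each), and in the NFIB mutant without TKO replicate 1 (0.84) or NFIB mutant replicate 1 (0.91). Of the Gins2 exon bases, 67.3% are shared with Gse1, so its counts depend on how reads in both genes were assigned. Gins3 (-0.75, adjusted p = 0.0225) and Gins4 (0.56, adjusted p = 0.0543) had opposite signs in the NFIB mutant, neither past the minimum.

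The clamp Pcna, which tethers polymerases to DNA, had 434, 423 and 289 CPM in TKO, 212, 177 and 256 in the CARM1 knockout and 253, 253 and 233 in the NFIB mutant. All mutant libraries were below all TKO libraries, and Pcna passed in the CARM1 knockout (log2 fold change -0.83 ± 0.21, adjusted p = 0.0196) but not in the NFIB mutant, where -0.63 was under the minimum. The call was lost without TKO replicate 1 (-0.71), TKO replicate 2 (-0.75) or CARM1 knockout replicate 2 (-0.70). Rpa1, the large subunit of the single-strand binding protein RPA, had 205, 204 and 334 CPM in TKO, 298, 294 and 274 in the CARM1 knockout and 272, 266 and 430.2 in the NFIB mutant. TKO replicate 3 and NFIB mutant replicate 3 were the highest, all 3 genotypes overlapped, and neither comparison passed. The clamp loader subunits Rfc2 to Rfc5 had log2 fold changes of -0.77 (Rfc4) to -0.02 (Rfc5) in the CARM1 knockout and -0.51 (Rfc4) to 0.04 (Rfc2) in the NFIB mutant, none past the thresholds. Rfc3 is shown because its promoter (chr5:151651159-151651458, minus strand) holds 2 matches to the E2F letters within 10 bases of the start, beside log2 fold changes of -0.36 and -0.43.
Rfc3: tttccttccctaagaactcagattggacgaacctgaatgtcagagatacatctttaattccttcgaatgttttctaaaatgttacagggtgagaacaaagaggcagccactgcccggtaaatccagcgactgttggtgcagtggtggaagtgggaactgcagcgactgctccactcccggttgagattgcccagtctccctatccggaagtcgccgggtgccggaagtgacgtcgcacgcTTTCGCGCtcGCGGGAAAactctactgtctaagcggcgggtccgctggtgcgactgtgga

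The primase subunit Prim1, which makes the RNA primers of both strands, had 142, 146 and 118 CPM in TKO, 57.6, 60.1 and 61.2 in the CARM1 knockout and 48.6, 57.1 and 49.9 in the NFIB mutant. No library departed from its genotype, and the mutants were below TKO by 2.27-fold (log2 fold change -1.18 ± 0.14, adjusted p = 0.00133) and 2.61-fold (log2 fold change -1.39 ± 0.14, adjusted p = 0.000654), with the lowest adjusted p of the 49 in each comparison. Its partner Prim2 had 65.6, 80.2 and 40.5 CPM in TKO, 82.0, 59.7 and 52.8 in the CARM1 knockout and 56.9, 74.5 and 63.0 in the NFIB mutant, with all genotypes overlapping and log2 fold changes of 0.06 and 0.06. The ratio of Prim1 to Prim2 per length within a library, which does not depend on the scale between libraries, was 3.33, 2.80 and 4.48 in TKO, 1.08, 1.55 and 1.78 in the CARM1 knockout and 1.31, 1.18 and 1.22 in the NFIB mutant. The ratio was lower in each mutant library than in any TKO library. It was chosen after the values were seen and was not tested. Pole, the leading-strand polymerase and the most abundant of the group in CPM, had 179, 169 and 100.5 CPM in TKO, 107, 132 and 109 in the CARM1 knockout and 96.5, 144 and 106 in the NFIB mutant. It overlapped between genotypes through TKO replicate 3. Its small subunit Pole2 fell in the CARM1 knockout (log2 fold change -0.88 ± 0.29, adjusted p = 0.047), a call lost without TKO replicate 1 (-0.75), TKO replicate 2 (-0.78), CARM1 knockout replicate 1 (-0.84) or CARM1 knockout replicate 2 (-0.84).

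The Pole2 promoter (chr12:69228141-69228440, minus strand) has 1 match to the E2F letters just after the start. The Prim1 promoter (chr10:128014965-128015264, plus strand) has none, and it is shown as that of the member with the lowest adjusted p.
Pole2: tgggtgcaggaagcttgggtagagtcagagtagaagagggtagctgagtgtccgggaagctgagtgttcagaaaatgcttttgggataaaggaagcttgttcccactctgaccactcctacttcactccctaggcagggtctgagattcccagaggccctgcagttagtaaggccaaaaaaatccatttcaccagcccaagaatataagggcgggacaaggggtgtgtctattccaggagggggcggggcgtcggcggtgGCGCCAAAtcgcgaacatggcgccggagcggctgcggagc
Prim1: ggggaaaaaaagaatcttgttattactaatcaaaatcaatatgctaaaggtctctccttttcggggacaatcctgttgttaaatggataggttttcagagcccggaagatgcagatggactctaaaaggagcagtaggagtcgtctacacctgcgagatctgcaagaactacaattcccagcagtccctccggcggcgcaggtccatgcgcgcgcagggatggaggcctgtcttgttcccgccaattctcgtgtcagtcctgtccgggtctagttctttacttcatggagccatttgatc

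**Figure D3:**
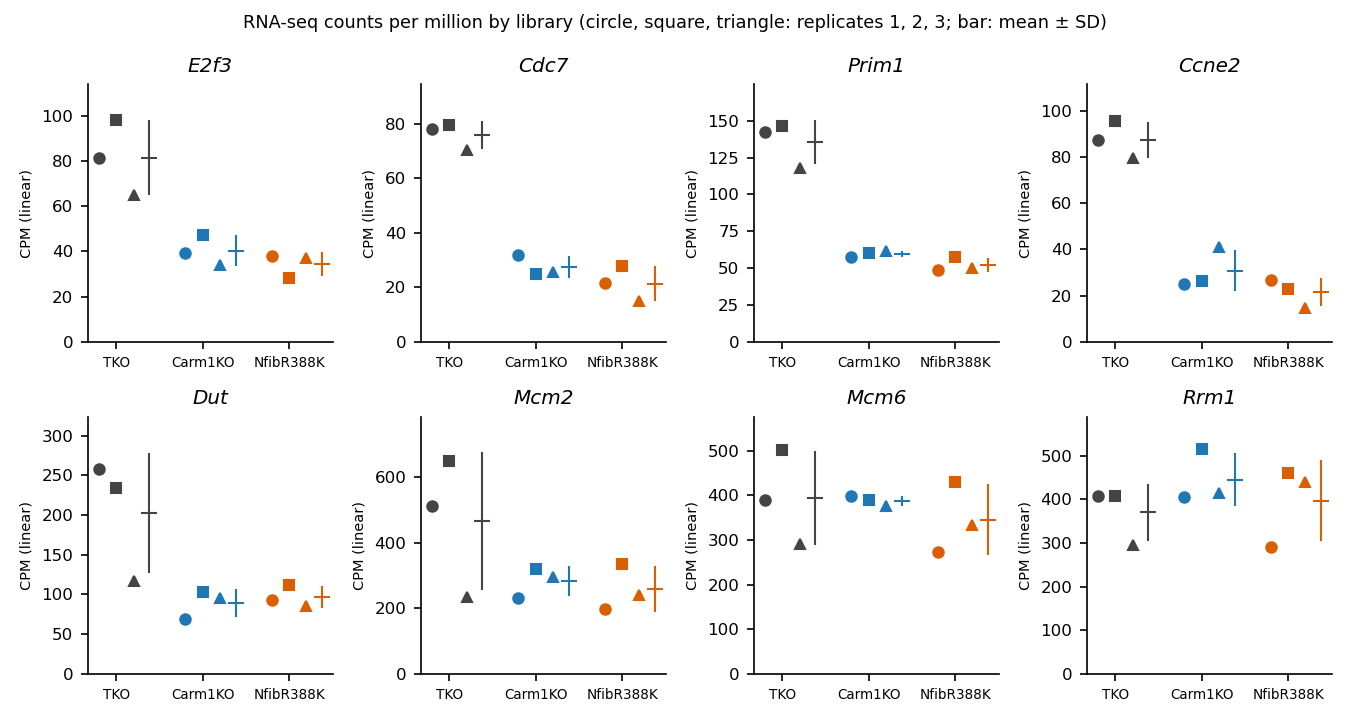
CPM (linear axes from 0) of 8 genes in the 9 RNA-seq libraries, with replicates 1, 2 and 3 as circle, square and triangle and the mean ± SD beside them (n = 3). E2f3, Cdc7, Prim1 and Ccne2 separate TKO from both mutants, TKO replicate 3 is low for Dut and Mcm2, and Mcm6 and Rrm1 overlap.

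Dut, the enzyme that removes dUTP so that uracil is kept out of DNA, had 258, 234 and 117 CPM in TKO, 69.1, 103 and 95.7 in the CARM1 knockout and 93.3, 112 and 84.9 in the NFIB mutant. TKO replicate 3 was close to the mutants, yet the groups did not overlap, and Dut fell by 1.19 ± 0.31 on the log2 scale in the CARM1 knockout (adjusted p = 0.0214) and by 1.07 ± 0.31 in the NFIB mutant (adjusted p = 0.0258). Rrm1, the large subunit of ribonucleotide reductase, had 406, 408 and 294 CPM in TKO, 406, 514.5 and 413 in the CARM1 knockout and 289.8, 460.4 and 438 in the NFIB mutant, and the genotypes overlapped. Rrm2, Tyms and Tk1, the other genes of nucleotide supply, passed in neither comparison. Tk1, thymidine kinase, was the nearest, at 0.75 in the NFIB mutant (adjusted p = 0.0617), where its 172, 177 and 226 CPM were all above TKO at 140.0, 132 and 69.4. It passed as higher there without TKO replicate 1 (0.94), TKO replicate 2 (0.87) or NFIB mutant replicate 1 (0.84). The Dut promoter (chr2:125247265-125247564, plus strand) is shown because the gene fell in both mutants, and it holds none of the E2F letters. This RefSeq window begins past the start of the gene in GENCODE, at 125247190, so the bases before that start were not searched.
Dut: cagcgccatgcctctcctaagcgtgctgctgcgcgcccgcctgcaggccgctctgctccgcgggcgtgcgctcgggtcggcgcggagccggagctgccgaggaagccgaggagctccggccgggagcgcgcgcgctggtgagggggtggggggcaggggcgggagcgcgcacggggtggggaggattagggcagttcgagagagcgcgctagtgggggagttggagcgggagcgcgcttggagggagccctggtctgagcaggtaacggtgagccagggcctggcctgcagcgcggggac

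The E-type cyclins activate CDK2 at the start of S phase, and the pair differed. Ccne2 had 87.2, 95.5 and 79.8 CPM in TKO, 25.1, 26.2 and 40.9 in the CARM1 knockout and 26.7, 22.9 and 14.7 in the NFIB mutant. Every mutant library was below 41 CPM and every TKO library above 79, a 2.85-fold lower mean in the CARM1 knockout (log2 fold change -1.51 ± 0.28, adjusted p = 0.00632) and 4.08-fold in the NFIB mutant (log2 fold change -2.03 ± 0.28, adjusted p = 0.00177), the largest falls among the 49 genes. Ccne1 had 42.8, 47.1 and 63.3 CPM in TKO, 51.7, 53.7 and 57.9 in the CARM1 knockout and 41.3, 29.8 and 52.3 in the NFIB mutant. Its genotypes overlapped and its log2 fold changes were 0.09 and -0.31, or 0.31 and -0.1 without TKO replicate 3. Per length, the ratio of Ccne2 to Ccne1 was 1.55, 1.55 and 0.961 in TKO, 0.370, 0.372 and 0.538 in the CARM1 knockout and 0.492, 0.587 and 0.214 in the NFIB mutant, lower in all mutant libraries and not tested. Of the Ccne2 exon bases, 17.4% are shared with Ints8.

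Chaf1b, a subunit of the chaperone that places histones on new DNA, had 128.5, 164 and 134 CPM in TKO, 77.6, 72.4 and 86.9 in the CARM1 knockout and 59.0, 88.3 and 81.5 in the NFIB mutant. All mutant libraries were below TKO, at -0.85 ± 0.19 (adjusted p = 0.0127) and -0.90 ± 0.19 (adjusted p = 0.00835). The call was lost in the CARM1 knockout without TKO replicate 2 (-0.73) or CARM1 knockout replicate 2 (-0.78), and in the NFIB mutant without TKO replicate 2 (-0.78) or NFIB mutant replicate 1 (-0.73). Dnmt1, which copies DNA methylation to the new strand, had 590.0, 552 and 539 CPM in TKO, 380.3, 472 and 398 in the CARM1 knockout and 329, 458 and 418 in the NFIB mutant. It was below TKO in all 6 mutant libraries, at -0.43 and -0.48, under the minimum of 0.8. Lig1, which seals Okazaki fragments, had 266, 269 and 178 CPM in TKO, 135, 152 and 162.5 in the CARM1 knockout and 155, 243 and 211 in the NFIB mutant. The CARM1 knockout was below TKO in all 3 libraries (-0.67, adjusted p = 0.0529), the NFIB mutant overlapped it, and neither passed. Fen1, which trims the fragments, had at most 7.58 CPM in any library, but 84.2% of its exon bases are shared with Gm10143 and Tmem258, so the count is no measure of its level.

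As levels per length over all 9 libraries, Pcna was the highest of the 49 at 117 RPKM, then Mcm3 at 83.9 and Mcm6 at 80.5. Apart from Fen1, Orc1 was the lowest at 3.62. Pcna was first in TKO at 159 RPKM, and had 89.5 in the CARM1 knockout and 103 in the NFIB mutant. Cdc7 went from 18.2 RPKM in TKO to 6.55 and 5.11, in the lower part of the list in each genotype. Among the TKO libraries, the highest value was 3.69 times the lowest for Mcm10, 3.48 for Pola2 and 3.01 for Orc6, but 1.14 for Cdc7, 1.20 for Ccne2 and 1.24 for Prim1. Cdc7, Ccne2 and Prim1 were thus steady between TKO animals, and E2f2 (1.75) and Dut (2.21), which also fell in both mutants, were less so.

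Other genes of the pathway were counted from fixed lists. Of 41 other replication and S-phase genes, 13 were lower in the CARM1 knockout and 11 in the NFIB mutant, none higher in either, beside 18.3% and 23.5% of all genes lower and 20.5% and 22.3% higher. Their medians were -0.64 and -0.58, beside -0.03 and -0.05 over all genes. The helicase-nuclease Dna2 had the largest fall, with 114, 101 and 105.5 CPM in TKO, 16.3, 26.5 and 32.2 in the CARM1 knockout and 13.2, 18.9 and 8.77 in the NFIB mutant. All mutant libraries were below TKO (-2.09 and -2.97, adjusted p = 0.00371 and 0.000961). Top2a, the topoisomerase that untangles copied DNA and the most abundant of the list, had 1306, 1147 and 660.1 CPM in TKO, 604, 557 and 538 in the CARM1 knockout and 750.0, 684 and 559.7 in the NFIB mutant. It passed in the CARM1 knockout (-0.87, adjusted p = 0.0372), a call lost without TKO replicate 1 (-0.65), TKO replicate 2 (-0.80) or CARM1 knockout replicate 3 (-0.79), and not in the NFIB mutant.

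Of 15 other E2F, DP, pocket protein and DREAM complex genes, 4 were lower and 1 higher in each mutant, where the shares of all genes were 18.3% and 23.5% lower and 20.5% and 22.3% higher. The gene that rose was E2f4, which binds the same promoters mainly as a repressor, with 36.6, 44.7 and 31.3 CPM in TKO, 73.8, 109 and 61.1 in the CARM1 knockout and 83.8, 90.1 and 104 in the NFIB mutant. Every mutant library was above every TKO library (1.11 and 1.31, adjusted p = 0.0116 and 0.00523). Per length, E2f3 to E2f4 was 1.0, 0.992 and 0.937 in TKO, 0.241, 0.197 and 0.251 in the CARM1 knockout and 0.205, 0.141 and 0.161 in the NFIB mutant. So E2f3 was near the level of E2f4 in TKO and at or below 0.251 of it in each mutant library, a ratio chosen after the values were seen and not tested. Rb1, with the largest fall of the list, passed in the CARM1 knockout (-1.32, adjusted p = 0.0932) but kept that call in only 2 of the 9 fits without a library, with -1.06 without CARM1 knockout replicate 2 and -1.81, still past the threshold, without replicate 3. In the NFIB mutant it passed too (-1.64, adjusted p = 0.0442), a call lost only without TKO replicate 1 (-1.46). Rbbp4, the most abundant, passed in neither.

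Of 12 genes of G2 and mitosis, 3 were lower and 2 higher in the CARM1 knockout and 2 lower and 2 higher in the NFIB mutant, close to those shares of all genes. Mki67, the proliferation marker and the most abundant, had 1009, 933 and 688 CPM in TKO, 451, 386 and 449 in the CARM1 knockout and 347, 475 and 309 in the NFIB mutant. It fell in all 6 mutant libraries (-1.03 and -1.22, adjusted p = 0.0122 and 0.00537). Kif11, a spindle motor, had the largest fall (-1.23 and -1.45), and Ccnb2, a mitotic cyclin, rose from 16.2, 14.1 and 32.8 CPM in TKO to 68.2, 105 and 82.1 in the CARM1 knockout and 94.2, 122 and 106 in the NFIB mutant (2.02 and 2.35).

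Between the CARM1 knockout and the NFIB mutant no gene passed by edgeR's quasi-likelihood test, 0 of 15514 (0.0%), and none of the 49. At an unadjusted p under 0.05 there were 1414 genes, 2 of them members. DESeq2 found 222 lower and 316 higher, and edgeR on genes with at least 10 counts in every library 3 lower and 2 higher, with no member among them in either. The members' log2 fold changes lay between -0.67 and 0.52, with a median of -0.08 beside 0.01 over all genes. A p that misses the threshold does not show that the mutants are alike.

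At the start sites, the 49 genes had 71 peaks: 1 for 32 genes, 2 for 12 and 3 for 5. The peak with the highest mean CPM over all libraries stands for each gene (the main peak), and 48 of these span an annotated start (that of Gins1 ends 65 bp from one and is also within reach of Abhd12). In the CARM1 knockout 17 of the 49 were lower and 1 higher (threshold 0.5 on the log2 scale), where 34.5% of the 25120 start-site peaks of all genes were lower and 22.3% higher. In the NFIB mutant 24 were lower and 1 higher, beside 38.4% and 22.7%. The higher one was that of E2f2 in both, and the choice of peak decides it: by the mean of TKO alone the E2f2 promoter peak, which fell, would stand for the gene (26.6 against 16.3 CPM), and no other gene's peak would change. All mutant libraries were below all TKO libraries for 30 of 49 genes in the CARM1 knockout and 30 of 49 in the NFIB mutant, beside 40.0% and 41.7% of start-site peaks. Between the mutants, 0 of 111116 peaks passed by edgeR (0.0%), with 6813 at an unadjusted p under 0.05, 1 of them of a member, and 537 lower and 523 higher by DESeq2, none of a member.

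The direction of these peaks depended on the scale. The members' median was -0.42 in the CARM1 knockout and -0.48 in the NFIB mutant, but 0.16 and 0.09 with library totals alone, which moved the median of all peaks from 0.22 to 0.79 in each comparison and left 0 members lower and 7 and 5 higher, beside 17.4% and 20.2% of start-site peaks lower and 34.7% and 33.8% higher. Of all calls, 45.6% and 46.4% were lower with the scale used here, and 34.1% and 35.7% with library totals. Scaled on start-site peaks of evenly expressed genes, 3 members were lower in each comparison, 2 higher in the CARM1 knockout and 3 in the NFIB mutant, beside 21.9% and 23.2% of start-site peaks lower and 28.1% and 29.7% higher. Relative to the median of all start-site peaks, the members' median was -0.13 and -0.14 with the scale used here and -0.13 in both comparisons with library totals, but -0.21 and -0.25 without TKO replicate 3 and, in the NFIB mutant, -0.23 without NFIB mutant replicate 2. Leaving out a library gave 9 (without CARM1 knockout replicate 1) to 24 (without TKO replicate 3) lower in the CARM1 knockout, beside 28.5% and 34.5% of start-site peaks. In the NFIB mutant it gave 17 (without NFIB mutant replicate 1) to 33 (without NFIB mutant replicate 2), beside 33.7% and 40.0%. Changes below are therefore read beside those start-site medians, -0.29 and -0.34.

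Genes with lower RNA had lower main peaks in part. Of the 11 members lower in RNA in the CARM1 knockout, 6 had a lower main peak, 4 none past the threshold and 1, E2f2, a higher one (lower at its promoter peak), and of the 38 others 11 had a lower peak. In the NFIB mutant these were 7, 1 and 1 of 9, and 17 of the 40 others. Of the start-site peaks of all genes, 34.5% were lower in the CARM1 knockout and 38.4% in the NFIB mutant. Whether members with lower RNA differ from the others in their peaks was not tested. The Ccne2 peak (chr4:11189966-11192898) had 102, 110.3 and 81.1 CPM in TKO, 50.2, 71.9 and 62.6 in the CARM1 knockout and 53.6, 64.5 and 56.4 in the NFIB mutant, and all mutant libraries were below TKO (-0.67 and -0.75, adjusted p = 0.0051 and 0.00262). It passed in neither mutant with library totals or when scaled on start-site peaks of evenly expressed genes. The Cdc7 peak (chr5:106963548-106965195) had 36.9, 40.3 and 33.5 CPM in TKO, 24.6, 30.0 and 29.6 in the CARM1 knockout and 26.5, 32.0 and 25.5 in the NFIB mutant, also without overlap, but at -0.40 and -0.40 it was near the start-site median and under the minimum. Mcm3, with RNA log2 fold changes of -0.22 and -0.05, had main peak values of -0.88 and -0.91, both past the thresholds with the scale used here. With library totals no member's main peak passed as lower.

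**Figure D4:**
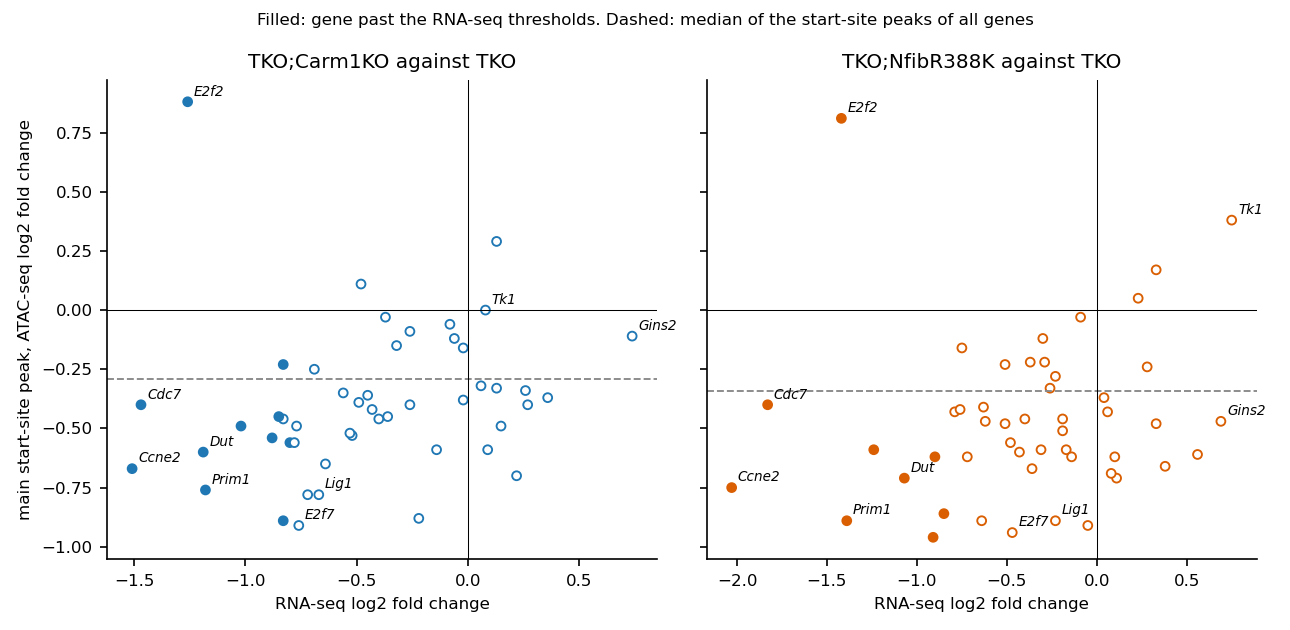
ATAC-seq log2 fold change of the main start-site peak against RNA-seq log2 fold change for the 49 genes in each mutant against TKO, 1 point per gene, filled where the RNA passed the thresholds. The dashed line is the median of the start-site peaks of all genes (-0.29 and -0.34), and E2f2 is the filled point above 0.

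E2f2 had start-site peaks that moved in opposite ways. The peak over its promoter (chr4:136171767-136173979), which contains the sequence printed above, had 28.0, 27.6 and 24.1 CPM in TKO, 14.1, 14.4 and 12.1 in the CARM1 knockout and 15.9, 14.8 and 13.5 in the NFIB mutant, and fell without overlap (-0.97 and -0.85). The larger peak inside the gene (chr4:136176847-136181629), over another annotated start, had 22.2, 17.2 and 9.55 CPM in TKO, 34.0, 32.5 and 23.9 in the CARM1 knockout and 36.5, 29.3 and 20.4 in the NFIB mutant, and rose (0.88 and 0.81), with TKO replicate 1 above NFIB mutant replicate 3. With library totals the promoter peak was at -0.39 and -0.28, past no threshold, and the inner peak at 1.49 and 1.40. Scaled on start-site peaks of evenly expressed genes, the promoter peak passed in the CARM1 knockout (-0.62) and not in the NFIB mutant (-0.43). The opposite signs held under every scale tried, including DESeq2, where the inner peak did not pass in the NFIB mutant (0.66), as it did not without NFIB mutant replicate 1 (0.61).

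The largest falls of start-site peaks by the mean of both comparisons were at peaks other than the main one. A Pold1 peak (chr7:44536224-44537946) had 11.2, 8.00 and 6.21 CPM in TKO, 1.499, 1.29 and 1.28 in the CARM1 knockout and 1.23, 1.64 and 1.119 in the NFIB mutant (-2.64 and -2.68), also within reach of Mir7053. An Mcm2 peak (chr6:88896689-88897689) fell by 1.61 and 1.92 on the log2 scale, and an Rfc5 peak (chr5:117379933-117381218) by 1.39 and 2.03, the latter not past the threshold in the CARM1 knockout with library totals (-0.86), without TKO replicate 3 (-0.81) or without CARM1 knockout replicate 1 (-1.17). These falls were in all mutant libraries. The largest rises were at a Dut peak upstream of its promoter (chr2:125245536-125246459), with 0.383, 0.896 and 0.465 CPM in TKO, 7.23, 5.61 and 4.06 in the CARM1 knockout and 7.11, 4.52 and 5.73 in the NFIB mutant (3.26 and 3.30). A Pola2 peak (chr19:5944064-5946695) rose by 2.50 and 2.99, and a Gins1 peak (chr2:150913751-150914193) by 2.39 and 2.58, each without overlap. Without TKO replicate 3 the Pola2 values were 3.1 and 3.59, and without CARM1 knockout replicate 2 the Gins1 value in the CARM1 knockout was 1.5. Dut and Gins1 are genes whose RNA fell in the CARM1 knockout, and Pola2 passed no RNA threshold. The Gins1 peak had between 4 and 131 counts in a library, a low depth. The Pold1, Mcm2, Rfc5, Pola2 and Gins1 peaks named here lie inside their genes, assigned through annotated starts other than the outermost one.

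Promoter sequences were found for 41 of the 49 genes, 51 sequences in all. The E2F letters were in a promoter of 18 of the 41 (43.9%, 95% Wilson interval 29.9 to 59.0%) and of 704 of 27025 genes with a promoter sequence (2.60%). Within 150 bases before the start, 8 of 41 had them (19.5%), beside 1.44% of all genes. The members were listed as E2F-regulated genes, so these higher shares are not independent of the choice of genes. The 18 genes included Mcm3, Mcm5, Mcm6, Mcm7, Cdc6, Cdt1 and Orc1 of helicase loading, and Mcm6 had the most, 3. Among the genes lower in either mutant, 3 of the 11 with a sequence held the letters (27.3%), namely E2f2, E2f3 and Pole2, and among the rest 15 of 30. The difference was not tested, and a match describes letters in a window, which for Dut began past the annotated start of the gene. CCAAT, read on both strands, was in 61.0% of the members and 41.1% of all genes, and TTTGAA, the cell cycle homology element, in 22.0% and 20.2%. TTTGAA was in 5 of the 11 members lower in either mutant (45.5%) and 4 of the 30 others (13.3%), which was not tested either. The members' promoters had a median GC content of 61.3%, beside 52.7% for all, and 49 of the 51 sequences lay inside a start-site peak.

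**Figure D5:**
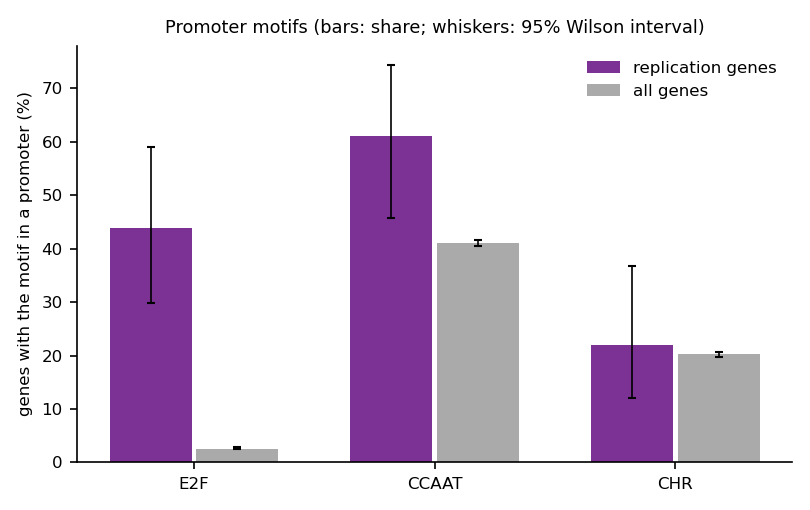
Share of genes with the E2F letters, CCAAT and the cell cycle homology element (CHR) in a promoter of 300 bases, for the 41 replication genes with a sequence and for all 27025 genes (bars from 0, whiskers 95% Wilson intervals). The E2F letters are in 43.9% of the replication genes, which were listed as E2F-regulated, and 2.60% of all genes. The CHR is in 22.0% and 20.2%.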

How the data were processed

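RNA-seq and ATAC-seq libraries of 3 genotypes, 3 per genotype and assay, were grouped by genotype per the labels. The count columns are named only C, KO and N with a number, and reading them as TKO, CARM1 knockout and NFIB mutant replicates is an inference on which every group value rests. The RNA-seq file holds raw counts of reads per Ensembl gene that the authors made with Trim Galore, HISAT2 (mm10) and htseq-count. The ATAC-seq file holds raw counts per peak on a merged peak set, which the authors made with Bowtie2 and Picard (peaks by MACS2 per the methods and by Genrich per the notes, counts by bedtools multicov per the methods and by featureCounts per the file headers). The htseq-count summary entries stayed out of library sizes. Reads in no gene were 10.0 to 12.2% in TKO and 3.65 to 5.17% in the mutants.

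Counts were fitted with edgeR 4.0.16 in R 4.3.3 (filterByExpr, trimmed mean of M values, robust quasi-likelihood F-test, all 9 libraries of an assay in one model), with Benjamini-Hochberg adjustment over all features tested. The pipeline was tested on simulated data in which few features changed, as many up as down. That test does not cover the choice of scale where many features change. Alternatives were DESeq2 1.42.0, other scalings, filters and thresholds, a replicate block, fits of only the genotypes compared, and leaving out each library. Replicate numbers do not pair the libraries: correlations of same-number RNA-seq libraries ran from -0.297 to 0.118. Peaks were assigned with GENCODE M21 (GRCm38), promoters came from RefSeq (GRCm38.p6), and tables and figures were made in Python 3.11.15 (numpy 2.4.6, pandas 2.3.3, matplotlib 3.10.9).

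The members and lists were chosen with earlier results of these data known. Library values are given, by a rule, for the member of each role group with the highest mean CPM and the one with the largest mean log2 fold change. In the other lists the most abundant gene and the called gene with the largest change in each direction are named, as are the 3 largest rises and falls of start-site peaks. Other genes named lie outside that rule, and ratios between genes and the comparison of named peaks across scalings were added after values were seen.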

Additional observations from a re-analysis of the deposited data

Results flagged for a closer look

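The share of reads that htseq-count left unassigned because they lay in more than 1 gene was between 3.84% and 4.10% for TKO, against 4.24% to 4.5% for the mutants. The lowest mutant value, 4.24% in CARM1 knockout replicate 3, was above the highest TKO value. The share comes from summary entries of the count file that enter no comparison above, and the difference was not tested. The total behind the share includes reads in no gene, which made up more of every TKO library than of any mutant library. Whether the groups also differ in the share among reads within genes was not tested. Of the replication genes, Fen1, Gins2 and Chaf1a have more than 50% of their exon bases in common with other genes.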

How the results depend on the processing

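In RNA-seq, library totals alone gave 21 members lower in the CARM1 knockout (median log2 fold change -0.72) and 20 in the NFIB mutant (-0.65), beside 24.9% and 31.0% of all genes. Without a fold minimum there were 19 lower and 1 higher in the CARM1 knockout (all genes 22.1% and 24.6%), and 16 lower and 3 higher in the NFIB mutant (27.5% and 26.8%), since fewer conditions applied. A replicate block gave 10 lower in the CARM1 knockout, without Gins1 (-0.79), beside 16.2% of all genes. In the NFIB mutant it gave 7 lower, without Mcm2 (-0.82) and Orc6 (-0.78), beside 21.1%. Tk1 alone was higher there (0.81), beside 20.8% of all genes. Leaving out a library gave 6 (without TKO replicate 1) to 21 (without TKO replicate 3) lower in the CARM1 knockout, beside 13.9% and 15.7%. Between 0 and 1 were higher, beside 16.6% to 21.4%. In the NFIB mutant it gave 6 (without NFIB mutant replicate 1) to 13 (without TKO replicate 3) lower, beside 21.3% and 20.8%. There 0 to 2 were higher, beside 19.4% to 22.9%. The members' median stayed below 0, at -0.62 to -0.30 and -0.50 to -0.19. For these the cause was not tested.

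For the main start-site peaks, DESeq2 gave 34 lower (median -0.59) in the CARM1 knockout, and 36 lower and 0 higher (-0.63) in the NFIB mutant, beside 44.3% and 46.0% of all start-site peaks lower. Library totals alone gave 0 lower and 7 higher (0.16) in the CARM1 knockout, and 0 lower and 5 higher (0.09) in the NFIB mutant, beside 17.4% and 20.2% lower and 34.7% and 33.8% higher. Scaling by start-site peaks of evenly expressed genes gave 3 lower and 2 higher (-0.08), and 3 lower and 3 higher (-0.08), beside 21.9% and 23.2% lower and 28.1% and 29.7% higher. At least 10 counts in every library gave 8 lower (-0.26), and 11 lower and 2 higher (-0.31), beside 26.9% and 30.3% lower. Without a fold minimum there were 29 lower in the CARM1 knockout, and 33 lower and 2 higher in the NFIB mutant, beside 39.6% and 43.4% lower. With the middle of the peak within 1000 bp of a start, 0 were higher in either, beside 22.3% and 22.7% of start-site peaks. Leaving out a library gave 9 (without CARM1 knockout replicate 1) to 24 (without TKO replicate 3) lower in the CARM1 knockout, beside 28.5% and 34.5%. In the NFIB mutant it gave 0 (without NFIB mutant replicate 1) to 2 (without TKO replicate 1) higher, beside 21.4% and 20.8%. The median there was -0.65 to -0.42. For these too the cause was not tested.

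Library totals move the peaks upward together, and the members' median itself changed sign. Of the named main peaks that passed as lower, those of E2f8 (0.03) and Pole2 (0.06) in the CARM1 knockout and of Mcm6 (0.09) and Dnmt1 (0.02) in the NFIB mutant were above 0 with that scale, as were others that had not passed. The sign of a small change thus depends on the scale, and which scale is right was not tested. The E2F letters were in 19.5% of members in the 150 bases before the start, a shorter window, beside 43.9%.

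E2f3, Cdc7, Prim1, Dut and Ccne2 kept their RNA-seq direction and side of the thresholds in both mutants whichever library was left out. With 3 animals per genotype, a spread like that of TKO replicate 3 decides several calls, and low-count features are measured poorly, such as a Gins1 peak with 4 to 131 counts. RNA and chromatin come from different libraries, described as made from the same tumor biopsies. No protein, cell cycle phase or cell composition was measured here. The genotypes and cell identity rest on the labels. Marker genes of other cell types differ between the groups, and their part in the results was not tested.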
